A study of Mus musculus with 30 samples.

Results

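The genes described here encode fibrillar collagens and the small matrix proteins that sit on collagen fibrils, measured in mouse olfactory epithelium after removal of its target. They are Col1a1, Col1a2, Col3a1, Col5a1, Col5a2, Fmod, Dcn, Lum, Bgn and Sparc. They were taken by symbol, counting only probe sets annotated to exactly 1 gene, which gave 17 of the 10833 such probe sets and 10 of their 8251 genes. Of the 17 probe sets, 16 passed a filter on low signal, and every gene kept at least 1. The exception was Fmod 161373_r_at, whose signal did not exceed 87.2 on any of the 30 arrays.

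The mutant-labelled mice carried a mutation of SR-A, a scavenger receptor of macrophages whose gene is Msr1, and were sampled at 0, 2, 8, 16 and 48 h. The wild-type-labelled mice were sampled at the same times. Both were 6 weeks old, and the times count from bilateral olfactory bulbectomy, an operation that takes out the left and right olfactory bulb, in which the axons of olfactory sensory neurons end. Each genotype and time had 3 arrays, and each array carried total RNA of microdissected olfactory epithelium. Neither the mouse strain, the SR-A allele nor what 0 h stands for (unoperated or sampled at surgery) is given in the sources used here. The series names 3 mice per genotype and the labels do not tie arrays to animals, so p-values measure the spread between arrays, which may in part be technical.

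Types I, III and V collagen form the fibrils of connective tissue. Type I, made of chains from Col1a1 and Col1a2, is the bulk of most fibrils, type III is mixed with it in pliable tissues, and type V, with chains from Col5a1 and Col5a2, helps to start fibrils and limits their width. Fibromodulin, lumican, decorin and biglycan are small leucine-rich proteoglycans that bind fibrils or growth factors, and Sparc, also called osteonectin, is a secreted collagen-binding glycoprotein. In the nose these genes are active mainly in the lamina propria beneath the epithelium and in the bone and cartilage that carry it, so a microdissected sample can hold more than the epithelium. In such bulk tissue, fewer cells of a type and less RNA per cell cannot be told apart.

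By GRCm38.p6, Col3a1 lies at chr1:45311538-45349706 and Col5a2 at chr1:45374331-45503282, with a gap of 24624 bases and 0 annotated genes between them. Dcn at chr10:97479500-97518163 and Lum at chr10:97565501-97572703 are likewise neighbours, with a gap of 47337 bases and 0 genes between them. The other members are apart, with Col1a1 at chr11:94936224-94953042, Col1a2 at chr6:4505618-4541543, Col5a1 at chr2:27886381-28039510, Fmod at chr1:134037254-134048280, Bgn at chrX:73483601-73495936 and Sparc at chr11:55394159-55420080.

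The 250 bases before the annotated start of Col1a2, Col3a1 and Sparc are shown because the brightest probe sets of these genes fell together at 48 h in both genotypes. They come from RefSeq on GRCm38.p6, where 6 of the 10 members had an entry. The windows are chr6:4505368-4505617 on the plus strand for Col1a2, chr1:45311288-45311537 on the plus strand for Col3a1 and chr11:55420081-55420330 on the minus strand for Sparc. Capitals mark CCAAT or TATAA, searched on both strands.
Col1a2: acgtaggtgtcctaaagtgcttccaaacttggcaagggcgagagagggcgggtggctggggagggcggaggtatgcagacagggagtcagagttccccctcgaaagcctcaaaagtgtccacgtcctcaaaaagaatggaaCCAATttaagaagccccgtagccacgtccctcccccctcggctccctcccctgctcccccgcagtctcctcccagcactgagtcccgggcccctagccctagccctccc
Col3a1: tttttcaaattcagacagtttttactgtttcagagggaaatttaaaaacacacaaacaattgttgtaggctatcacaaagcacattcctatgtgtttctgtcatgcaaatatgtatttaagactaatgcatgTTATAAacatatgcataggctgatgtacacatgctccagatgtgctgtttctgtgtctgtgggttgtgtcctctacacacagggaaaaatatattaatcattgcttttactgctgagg
Sparc: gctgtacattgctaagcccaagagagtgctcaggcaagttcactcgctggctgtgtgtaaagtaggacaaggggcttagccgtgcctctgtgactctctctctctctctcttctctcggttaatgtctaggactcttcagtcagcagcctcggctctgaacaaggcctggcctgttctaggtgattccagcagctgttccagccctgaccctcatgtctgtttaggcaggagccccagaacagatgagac
Col1a2 held CCAAT, the CCAAT box, with its first base 109 bases before the start. Col3a1 held TATAA, the core of a TATA box, on both strands in overlap, with the plus-strand match starting 117 bases before the start. The Sparc window held neither. Of the 6 members, 1 held CCAAT and 1 held TATAA, against 33.8% and 22.8% of 32851 windows of the same length. The GC box GGGCGG stood in 3 of the 6 members and GGGAGG in 4 of the 6, against 32.7% and 38% of all windows. None of these motifs stood in all 3 windows shown, and a match or its absence says nothing about a factor.

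Some facts of the arrays touch every value below. Changes are log2 differences ± their standard error from limma with 3 arrays per group, and p-values are Benjamini-Hochberg adjusted over 6968 tested probe sets, called at 0.05. Signals below a floor of 113.7 were set to it. Counts at an unadjusted p under 0.05 come without the share of all tested probe sets at that threshold, so they cannot be set against it. Msr1, the targeted gene, was brighter in the mutant-labelled arrays, at 297.5 to 587.4 on its brighter probe set against 32.6 to 295.1 in the wild-type-labelled arrays. This is opposite to what less transcript would give, and the place of its probes relative to the mutation is unknown, so the gene is no check of genotype and directions between genotypes rest on the labels. At 2 h the mutant-labelled arrays differed from the rest in the 3' minus 5' log2 difference of the Gapdh control, at 5.59, 0.15 and 1.27 against -0.31 to -0.13 in the other 27 arrays. Omp, the marker of mature olfactory neurons, had a signal of 128.5, 16964 and 3389.5 in replicates 1, 2 and 3 of the mutant-labelled 2 h group, against 16300 to 40155 in those 27 arrays.

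By 48 h Col3a1, Col5a2, lumican, Sparc and, on their brighter probe sets only, both type I collagen genes were lower than at 0 h in both genotypes. Fibromodulin and biglycan were lower in the wild-type-labelled arrays. In the mutant-labelled arrays 9 of 16 member probe sets were called lower, where 4.98% of all tested probe sets were, and 0 were called higher, where 4.49% were. Among the wild-type-labelled arrays 13 of 16 were called lower, where 7.08% of all tested probe sets were, and 0 were called higher, where 7.88% were. All 3 arrays at 48 h lay below all 3 at 0 h for 11 member probe sets in the mutant-labelled mice, against 12.4% of all tested, and for 14 in the wild-type-labelled mice, against 19.4%. The median change of the member probe sets was -0.93 in the mutant-labelled and -1.46 in the wild-type-labelled arrays, beside 0.02 and -0.02 over all tested probe sets in that order of genotypes. Counted by the brightest probe set of each gene, 6 of 10 genes were lower in the mutant-labelled and 9 of 10 in the wild-type-labelled arrays. By that probe set decorin was called in neither, and Col5a1, Fmod and Bgn only in the wild-type-labelled arrays. The dimmer Col5a1 101080_at was called lower in both.

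**Figure D1:**
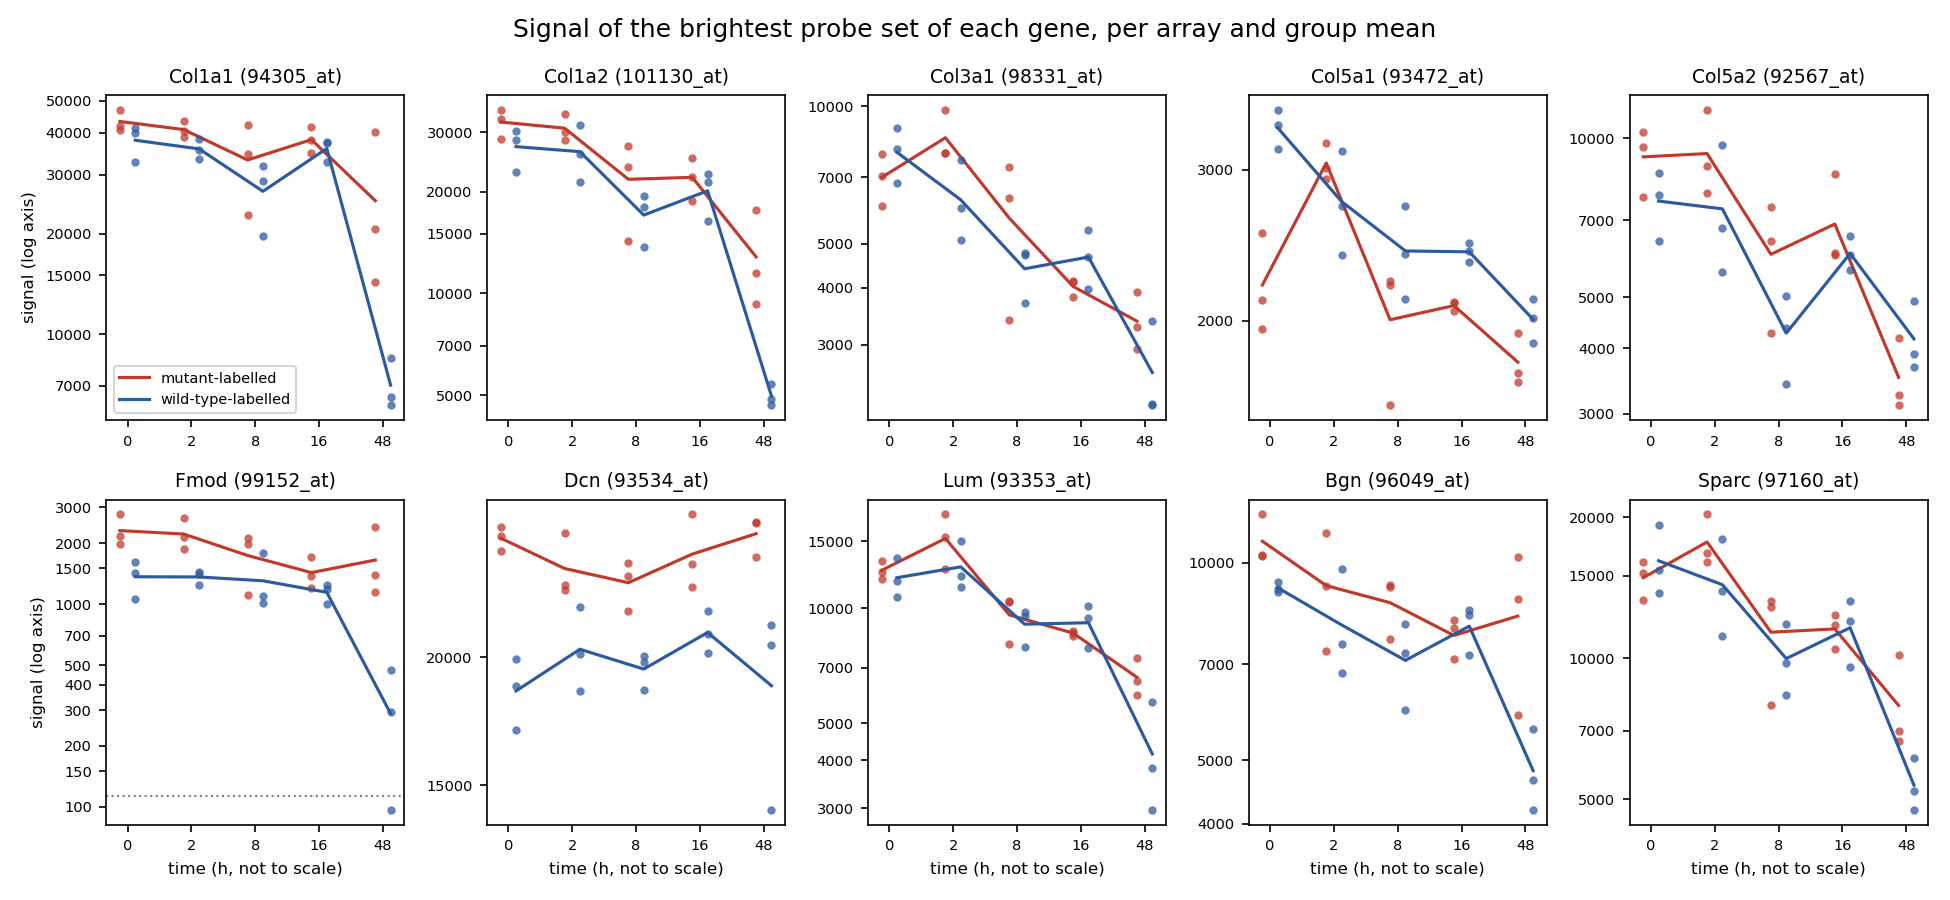
Signal of the brightest probe set of each gene on log axes with a range of their own, over time on an axis not to scale. Points are arrays, lines join the group means of signal, mutant-labelled left and wild-type-labelled right at each time, and the dotted line in the Fmod panel is the floor. Col1a1 and Fmod drop at 48 h mainly in the wild-type-labelled arrays, while Dcn stays level over time and sits higher in the mutant-labelled arrays.

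The type I collagen genes fell in both genotypes on their brighter probe sets. The signal of Col1a1 on 94305_at was 20576, 40391 and 14281 at 48 h against 46939, 42043 and 40942 at 0 h in the mutant-labelled arrays. The wild-type-labelled arrays gave 6480, 8493 and 6126 at 48 h against 39979, 41513 and 32640 at 0 h. The groups did not overlap in either genotype, but mutant-labelled 48 h replicate 2 lay close to its 0 h arrays. Col1a1 fell by 0.92 ± 0.25 (adjusted p = 0.0226) in the mutant-labelled and fell by 2.44 ± 0.25 (adjusted p = 5.09e-07) in the wild-type-labelled arrays. In the mutant-labelled arrays the Col1a1 change of 94305_at was -0.58 (adjusted p = 0.171) without 48 h replicate 3, and it also missed the threshold without 48 h replicate 1, without 0 h replicate 1 or 2 (adjusted p = 0.0569, 0.0819 and 0.0583), or with only the groups compared in the fit (adjusted p = 0.175). This probe set lies near the top of the arrays' signal range, and saturation was not tested.

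Col1a2, the partner chain, had a signal on 101130_at of 11492, 17641 and 9331 at 48 h against 34987, 28670 and 32890 at 0 h in the mutant-labelled arrays. Its wild-type-labelled signal was 4860, 5380 and 4664 at 48 h against 28525, 30249 and 22849 at 0 h. Again the groups did not overlap. Col1a2 fell by 1.37 ± 0.22 (adjusted p = 3e-04) in the mutant-labelled and fell by 2.45 ± 0.22 (adjusted p = 7.84e-08) in the wild-type-labelled arrays.

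Col3a1, the chain of type III collagen, had a signal on 98331_at of 3276, 3920 and 2935 at 48 h against 7871, 6053 and 7021 at 0 h in the mutant-labelled arrays. The wild-type-labelled values were 2226, 3381 and 2208 at 48 h against 8067, 8948 and 6787 at 0 h. All arrays at 48 h were below all at 0 h. Its 3 probe sets fell by 1.05, 1.02 and 1.46 in the mutant-labelled and fell by 1.63, 1.35 and 1.82 in the wild-type-labelled arrays on the log2 scale, each called.

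The type V genes moved less uniformly. Col5a2 was at 3116, 4187 and 3252 at 48 h against 10287, 7746 and 9647 at 0 h in the mutant-labelled arrays. Among the wild-type-labelled arrays Col5a2 was at 3893, 3688 and 4911 at 48 h against 7816, 8603 and 6399 at 0 h. It fell by 1.39 ± 0.22 (adjusted p = 0.000224) in the mutant-labelled and fell by 0.87 ± 0.22 (adjusted p = 0.00809) in the wild-type-labelled arrays, so its change in the mutant-labelled arrays was the larger by value. The difference of -0.52 ± 0.31 between those changes was not called (adjusted p = 0.405). Col5a1 on 93472_at changed by -0.29 ± 0.12 (adjusted p = 0.139) in the mutant-labelled arrays and fell by 0.74 ± 0.12 (adjusted p = 0.000227) in the wild-type-labelled arrays.

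Among the small proteoglycans, Fmod had the largest genotype difference of the members at 48 h, given further on. Its signal was 1386, 2415 and 1154 at 48 h against 1978, 2169 and 2774 at 0 h in the mutant-labelled arrays, with overlapping groups. The Fmod signal in wild-type-labelled arrays was 293, 476 and 96.8 at 48 h, the last under the floor, against 1057, 1420 and 1620 at 0 h, with no overlap. The change was -0.54 ± 0.36 (adjusted p = 0.375) in the mutant-labelled arrays, and Fmod fell by 2.42 ± 0.36 (adjusted p = 5.5e-05) in the wild-type-labelled arrays.

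Lum, which limits fibril width in cornea and skin, was at 6456, 7431 and 5914 at 48 h against 13332, 12447 and 11937 at 0 h in the mutant-labelled arrays. Its wild-type-labelled arrays gave 2968, 5682 and 3819 at 48 h against 13563, 11826 and 10699 at 0 h. It fell by 0.93 ± 0.18 (adjusted p = 0.0016) in the mutant-labelled and fell by 1.58 ± 0.18 (adjusted p = 1.59e-06) in the wild-type-labelled arrays, with no overlap in either.

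Dcn, whose protein binds collagen and TGF-beta, did not share this pattern. Its signal was 27043, 25065 and 27076 at 48 h against 25369, 26233 and 26794 at 0 h in the mutant-labelled arrays. Wild-type-labelled arrays had a Dcn signal of 20568, 21516 and 14196 at 48 h against 18736, 19916 and 16966 at 0 h. The groups overlapped in time in both genotypes. The change was 0.01 ± 0.12 (adjusted p = 0.958) in the mutant-labelled and -0.00 ± 0.12 (adjusted p = 0.988) in the wild-type-labelled arrays, while its chromosomal neighbour Lum fell.

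Bgn, the closest relative of decorin, was at 5862, 10216 and 8799 on 96049_at at 48 h against 10267, 10233 and 11847 at 0 h in the mutant-labelled arrays. Wild-type-labelled Bgn was at 4674, 5590 and 4204 at 48 h against 9013, 9346 and 9120 at 0 h. The 48 h and 0 h mutant-labelled arrays all but met, at 10216 and 10233, while a wide gap separated the wild-type-labelled ones. The change was -0.41 ± 0.18 (adjusted p = 0.142) in the mutant-labelled arrays, and Bgn fell by 0.94 ± 0.18 (adjusted p = 0.000781) in the wild-type-labelled arrays.

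Sparc had a signal of 6992, 10142 and 6649 at 48 h against 16023, 13325 and 15214 at 0 h in the mutant-labelled arrays. For Sparc the wild-type-labelled arrays gave 4747, 6121 and 5205 at 48 h against 15432, 19266 and 13754 at 0 h. It fell by 0.93 ± 0.20 (adjusted p = 0.00539) in the mutant-labelled and fell by 1.59 ± 0.20 (adjusted p = 1.11e-05) in the wild-type-labelled arrays, with no overlap in either.

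**Figure D2:**
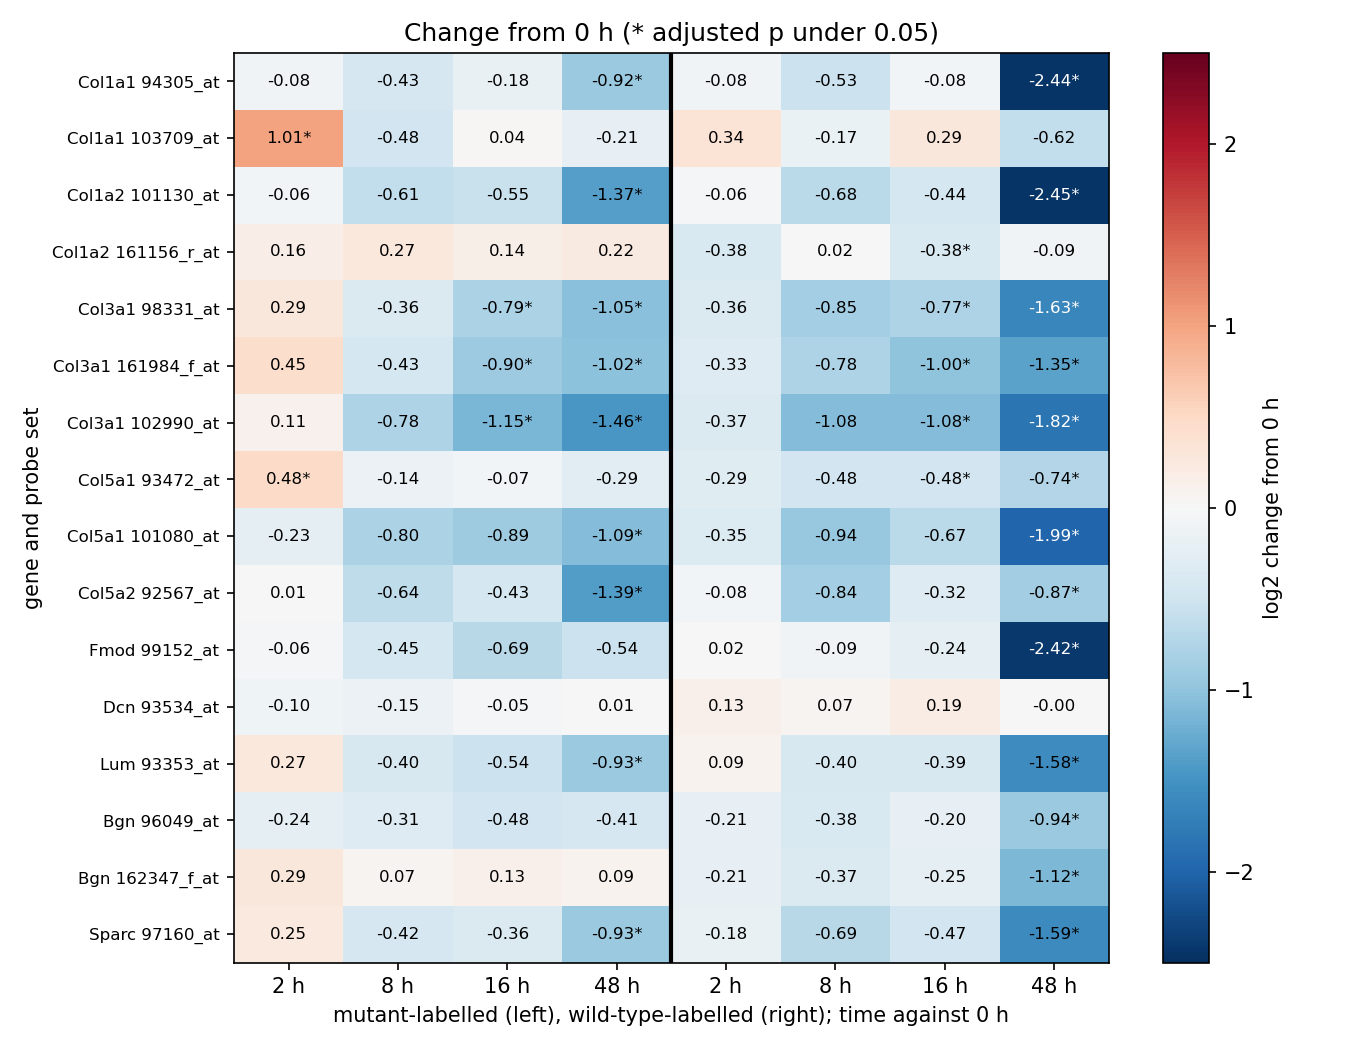
Log2 change of each of the 16 tested member probe sets against 0 h, by time and genotype, mutant-labelled columns left of wild-type-labelled ones, with a star where the adjusted p is under 0.05. At 48 h 9 probe sets were called lower in the mutant-labelled and 13 in the wild-type-labelled arrays, and Dcn in neither.

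Before 48 h, 16 h was the one time at which members were called lower, but most values were below 0 h by 8 h already. The median change of the member probe sets was -0.42 at 8 h and -0.45 at 16 h in the mutant-labelled arrays. For the wild-type-labelled arrays it was -0.51 at 8 h and -0.39 at 16 h. Col3a1 was among the members called at 16 h while Col1a1 was not, a difference between genes that was not tested. All these comparisons share the 0 h arrays of their genotype. At 2 h 2 member probe sets were called higher in the mutant-labelled arrays, where 7.38% of all tested were, and 0 were called in the wild-type-labelled arrays, where 0.574% were called either way and 2 members had an unadjusted p under 0.05 in limma. The 2 were Col1a1 103709_at, at 31389, 13569 and 28689 in the 2 h arrays, and Col5a1 93472_at. Col1a1 103709_at rose by 1.01 ± 0.23 (adjusted p = 0.00368) while the other Col1a1 probe set, 94305_at, changed by -0.08 ± 0.25. In that order of replicates the Gapdh 3' minus 5' differences were 5.59, 0.15 and 1.27, so the 2 arrays highest in Col1a1 103709_at were also highest in that control and lowest in Omp, and the part of either in the result was not tested. Both calls were lost with only the groups compared in the fit, and that of Col5a1 without mutant-labelled 0 h replicate 2.

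At 8 h 0 member probe sets were called in limma in either genotype, where 1.91% of all tested were in the mutant-labelled and 0.201% in the wild-type-labelled arrays. An unadjusted p under 0.05 in limma was reached by 8 members in the mutant-labelled and 12 in the wild-type-labelled arrays. The share of all tested probe sets at that threshold is not given here. All 3 arrays at 8 h lay below all 3 at 0 h for 9 of 16 members in the mutant-labelled mice, against 11.9% of all tested, and for 12 of 16 in the wild-type-labelled mice, against 7.53%. Mutant-labelled 8 h replicate 1 was the lowest of its group in 15 of the 16, and wild-type-labelled 8 h replicate 2 in 12. Without wild-type-labelled 8 h replicate 3, Col3a1 102990_at (-1.16, adjusted p = 0.0475) and Col5a1 93472_at (-0.57, adjusted p = 0.0315) passed the threshold.

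At 16 h 3 members were called lower in the mutant-labelled arrays, where 1.82% of all tested were, and they were the 3 Col3a1 probe sets, at -0.79, -0.90 and -1.15. In the wild-type-labelled arrays 5 were called lower, where 3.04% of all tested were, namely the 3 of Col3a1 at -1.08 to -0.77, Col5a1 93472_at at -0.48 and Col1a2 161156_r_at at -0.38. Col1a1 94305_at was near its 0 h level at 16 h, at -0.18 ± 0.25 in the mutant-labelled and -0.08 ± 0.25 in the wild-type-labelled arrays. Its mean signal over 0, 8 and 16 h was 43308, 33214 and 38204 in the mutant-labelled and 38044, 26758 and 35945 in the wild-type-labelled arrays. A change from 8 h to 16 h was not tested. Leaving out 1 array left 0 calls in the mutant-labelled comparison without 0 h replicate 3, 1 without 16 h replicate 2 or 3, and 1 to 3 in the wild-type-labelled comparison whichever of its 6 arrays was left out. The call of Col3a1 98331_at, close to the threshold, was lost under 9 of 13 alternatives in the mutant-labelled (adjusted p up to 0.159) and 7 of 13 in the wild-type-labelled arrays (adjusted p up to 0.16). That of Col1a2 161156_r_at was lost whichever of the 6 wild-type-labelled arrays was left out (adjusted p up to 0.2), and with only the groups compared. Col5a1 93472_at lost its call without 0 h replicate 1 or 2 or any 16 h replicate (adjusted p up to 0.0927).

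Set directly against 16 h, 2 members were called lower at 48 h in the mutant-labelled arrays, Col1a2 101130_at (-0.83 ± 0.22) and Col5a2 (-0.96 ± 0.22), where 3.34% of all tested were. In the wild-type-labelled arrays 10 were called lower, where 1.88% of all tested were. The largest of these were Col1a1 94305_at at -2.37 ± 0.25, Fmod at -2.18 ± 0.36 and Col1a2 101130_at at -2.01 ± 0.22. Col5a1 101080_at at -1.32 ± 0.35, Lum at -1.19 ± 0.18 and Sparc at -1.11 ± 0.20 followed. By these values most of the change in Col1a1 94305_at, Col1a2 101130_at and Fmod in the wild-type-labelled arrays lay after 16 h. With only the groups compared, 0 calls were left in the mutant-labelled and 5 in the wild-type-labelled arrays. Without 16 h replicate 2 the mutant-labelled count was 0, and it was 1 without 16 h replicate 3 or 48 h replicate 1 or 3. The wild-type-labelled count was 6 without 16 h replicate 2 or 3 or 48 h replicate 1.

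Between genotypes the most calls among members came at 48 h, where 8 of 16 probe sets were called higher in the mutant-labelled arrays against 7.23% of all tested, and 0 were called lower, against 9.07%. Fmod was higher by 2.64 ± 0.36 (adjusted p = 2.93e-05), Col1a1 94305_at by 1.71 ± 0.25 (adjusted p = 7.93e-05) and Col1a2 101130_at by 1.32 ± 0.22 (adjusted p = 0.000271). Both Bgn probe sets, 96049_at at 0.75 and 162347_f_at at 0.80, Lum at 0.71, Dcn at 0.52 and Col1a1 103709_at at 0.89 were the other 5. Sparc, at 0.55 ± 0.20 (adjusted p = 0.0708), and Col3a1 98331_at, at 0.39 ± 0.22 (adjusted p = 0.244), were not called. Mutant-labelled 48 h replicate 2 was the highest of its group in 13 of the 16 member probe sets, and wild-type-labelled 48 h replicate 2 in 11. The member probe sets share arrays, so they are not separate observations. The count was 7 to 9 with any 1 array left out, and 4 with only the 2 groups compared in the fit.

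**Figure D3:**
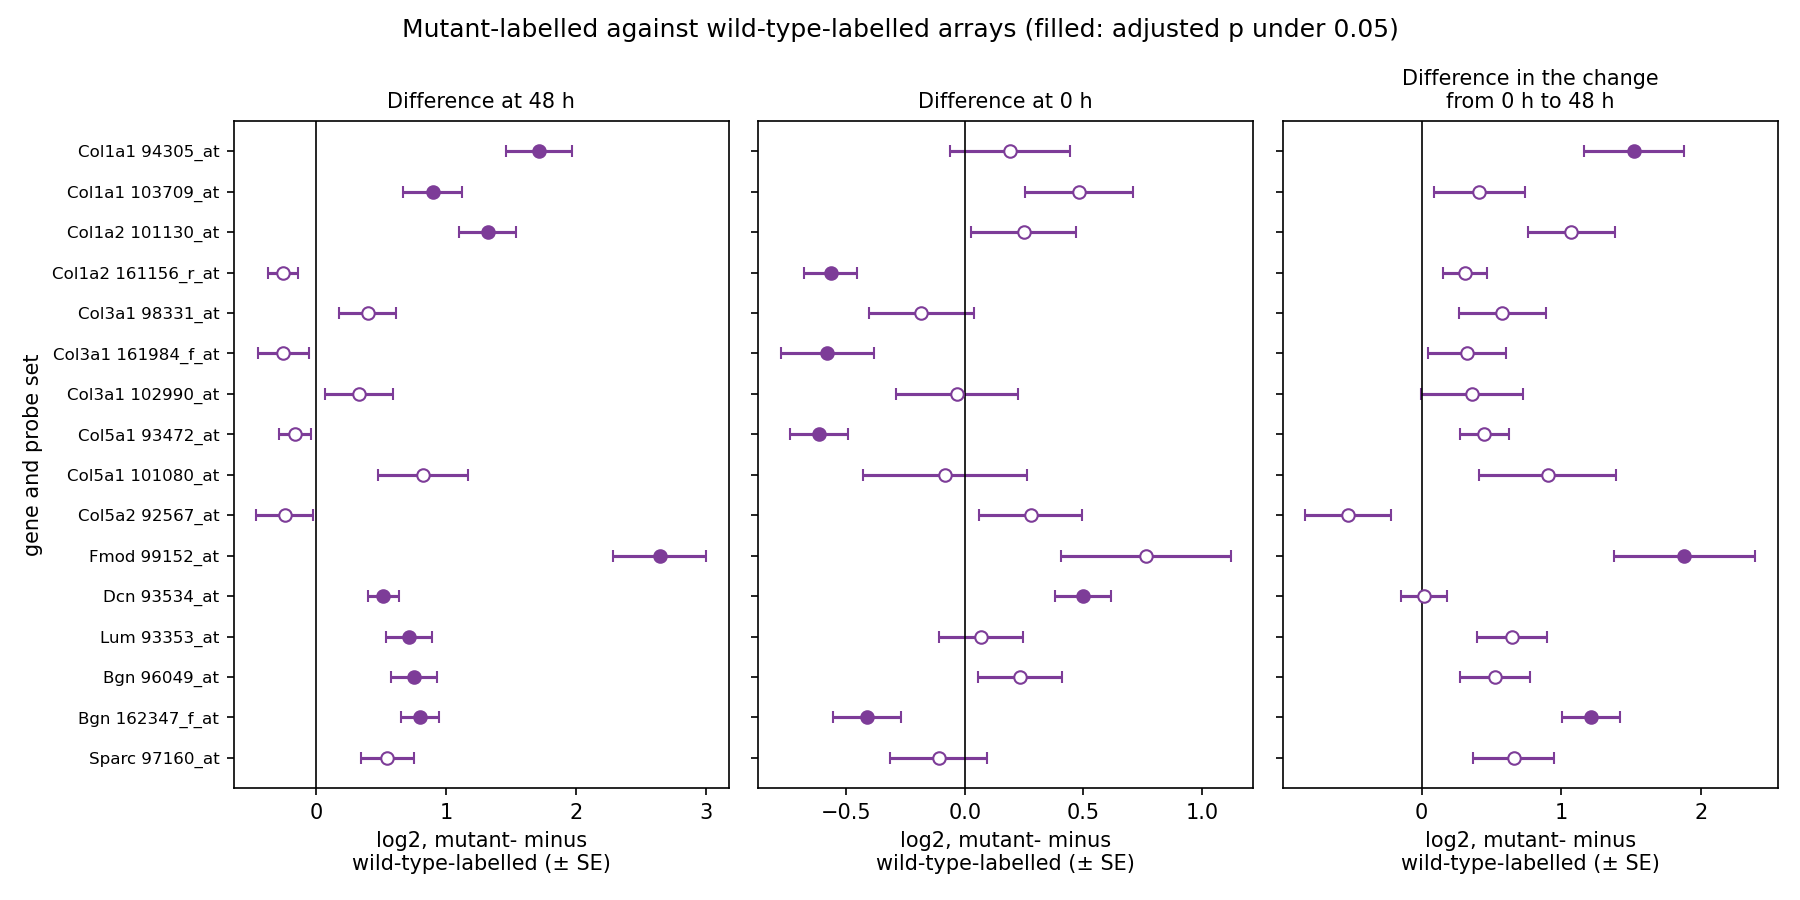
Log2 difference, mutant-labelled minus wild-type-labelled, of the 16 tested member probe sets at 48 h, at 0 h and in the change between these times, each panel with its own axis, standard errors as bars and filled points where the adjusted p is under 0.05. At 48 h 8 are called higher in the mutant-labelled arrays, with Fmod at 2.64, while at 0 h 4 are called lower and Dcn higher.

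At 0 h 4 members were called lower in the mutant-labelled arrays, where 10.7% of all tested were, and 1 higher, where 7.62% were. The lower ones were Col5a1 93472_at at -0.62 ± 0.12 (adjusted p = 0.00204), Col3a1 161984_f_at at -0.58 ± 0.20, Col1a2 161156_r_at at -0.57 ± 0.11 and Bgn 162347_f_at at -0.41 ± 0.14. For Col3a1, Col1a2 and Bgn the brighter probe set of the same gene was not called, at -0.18, 0.25 and 0.23. The higher one was Dcn, at 0.50 ± 0.12 (adjusted p = 0.00608). Fmod had the largest 0 h difference of the members by value, at 0.76, and was not called. Its mutant-labelled arrays, at 1978 to 2774, lay above the wild-type-labelled ones, at 1057 to 1620. With only the groups compared in the fit, Fmod was called at 0 h (limma, adjusted p = 0.0338). Dcn means were higher in the mutant-labelled arrays at every time, at 26132 ± 718, 24409 ± 1769, 23641 ± 1303, 25212 ± 2129 and 26395 ± 1151 over 0, 2, 8, 16 and 48 h, against 18539 ± 1485, 20360 ± 1926, 19473 ± 788, 21142 ± 1018 and 18760 ± 3981 (SD, n = 3 arrays) in the wild-type-labelled arrays. Quantile normalization reduced the 0 h difference of Dcn to 0.27 (adjusted p = 0.0937), and the 99th percentile of signal was 22212 to 25478 in the mutant-labelled arrays other than 2 h, against 19616 to 22306 in the wild-type-labelled arrays. The 0 h count of lower members was 2 with quantile normalization, and also without either genotype's 0 h replicate 1 or 2. Under the 13 alternatives Bgn 162347_f_at lost its call in 10 and Col3a1 161984_f_at in 6, while Col5a1 93472_at and Col1a2 161156_r_at lost theirs in none.

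At 2 h Col1a1 103709_at was called higher in the mutant-labelled arrays, at 1.15 ± 0.23 (adjusted p = 0.00189), where 1.62% of all tested were, and it is the probe set described above with the Gapdh control. At 8 h and 16 h 0 members were called in limma, where 2.94% and 8.42% of all tested were called either way, and 4 and 2 members had an unadjusted p under 0.05.

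The difference between genotypes in the change since 0 h was called for 3 members at 48 h, where 1.05% of all tested were called higher. It was 1.52 ± 0.36 (adjusted p = 0.0218) for Col1a1 94305_at, 1.88 ± 0.51 (adjusted p = 0.0427) for Fmod and 1.21 ± 0.20 (adjusted p = 0.00186) for Bgn 162347_f_at, each meaning a smaller fall in the mutant-labelled arrays or none. Bgn 162347_f_at was at 1544, 1819 and 2204 at 48 h against 1506, 1815 and 1878 at 0 h in the mutant-labelled arrays. Its wild-type-labelled values were 1043, 1135 and 996 at 48 h against 2188, 2193 and 2524 at 0 h. It passed the threshold under all 19 alternatives tried, with adjusted p between 0.00106 and 0.0121. Fmod lost its call under 10 of 19, with 1.31 (adjusted p = 0.105) without wild-type-labelled 48 h replicate 3, and Col1a1 94305_at under 4 of 19. The differences of Col1a2 101130_at (1.07 ± 0.31, adjusted p = 0.0629), Lum (0.64 ± 0.25, adjusted p = 0.169) and Sparc (0.66 ± 0.29, adjusted p = 0.24) were not called. Nor was that of the brighter Bgn probe set, 96049_at (0.52 ± 0.25, adjusted p = 0.289). The 48 h count was 1 without wild-type-labelled 0 h replicate 2 or 48 h replicate 3, or without mutant-labelled 0 h replicate 3, and with only the groups compared. At 2 h the difference was called for 2 members, where 4.52% of all tested were called higher, namely Col5a1 93472_at (0.77 ± 0.18, adjusted p = 0.00842) and Col1a2 161156_r_at (0.54 ± 0.16, adjusted p = 0.033), and both use the mutant-labelled arrays set apart by the Gapdh control. At 8 h and 16 h 0 members were called in limma, where 0% and 0.115% of all tested were, and 1 and 2 members had an unadjusted p under 0.05.

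Probe sets of the same gene did not always move alike. Over the 0 h and 48 h arrays, the brightest probe set was set against each other tested one within each array, which made 6 pairs, with an exact two-sided permutation test of arrays within genotype. Its smallest possible p is 0.005, and p-values were adjusted over the 6 pairs. Col1a1 94305_at changed by 0.72 more downward than 103709_at in the mutant-labelled and by 1.82 more in the wild-type-labelled arrays, a mean within-array difference of -1.27 (exact permutation, adjusted p = 0.01). Col1a1 103709_at itself was at 7542, 13787 and 9324 at 48 h against 9448, 12651 and 12426 at 0 h in the mutant-labelled arrays. The wild-type-labelled arrays stood at 5222, 5778 and 5006 at 48 h against 8202, 8385 and 7954 at 0 h, with no overlap, but its change of -0.62 ± 0.23 missed the threshold (adjusted p = 0.0702) and passed it when the 2 h mutant-labelled arrays were left out (adjusted p = 0.0137).

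Col1a2 161156_r_at did not follow 101130_at at all, with 2435, 2518 and 3090 at 48 h against 2516, 2045 and 2328 at 0 h in the mutant-labelled arrays. In the wild-type-labelled arrays it was at 3486, 2898 and 3191 at 48 h against 3793, 3160 and 3246 at 0 h. The mean difference between both probe sets was -1.98 (exact permutation, adjusted p = 0.01), so the fall of Col1a2 rests on 101130_at. For Col5a1 the dimmer 101080_at moved more than 93472_at, with a mean difference of 1.02 (exact permutation, adjusted p = 0.01). Col5a1 101080_at fell by 1.09 ± 0.35 (adjusted p = 0.048) in the mutant-labelled and fell by 1.99 ± 0.35 (adjusted p = 0.00034) in the wild-type-labelled arrays, where 1 of the 3 arrays at 48 h was under the floor at 76.9. The mutant-labelled call of 101080_at was lost under 7 of 13 alternatives, with adjusted p up to 0.157. The Col3a1 probe sets 98331_at and 161984_f_at differed by -0.15 (exact permutation, adjusted p = 0.33). The Bgn probe sets differed in opposite directions, 96049_at less 162347_f_at being -0.50 in the mutant-labelled and 0.19 in the wild-type-labelled arrays, so their mean of -0.16 (exact permutation, adjusted p = 0.33) does not show that they moved alike. For Col3a1, 102990_at fell by 0.31 more than 98331_at on average (exact permutation, adjusted p = 0.0375), which was lost under 8 of 14 alternatives.

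**Figure D4:**
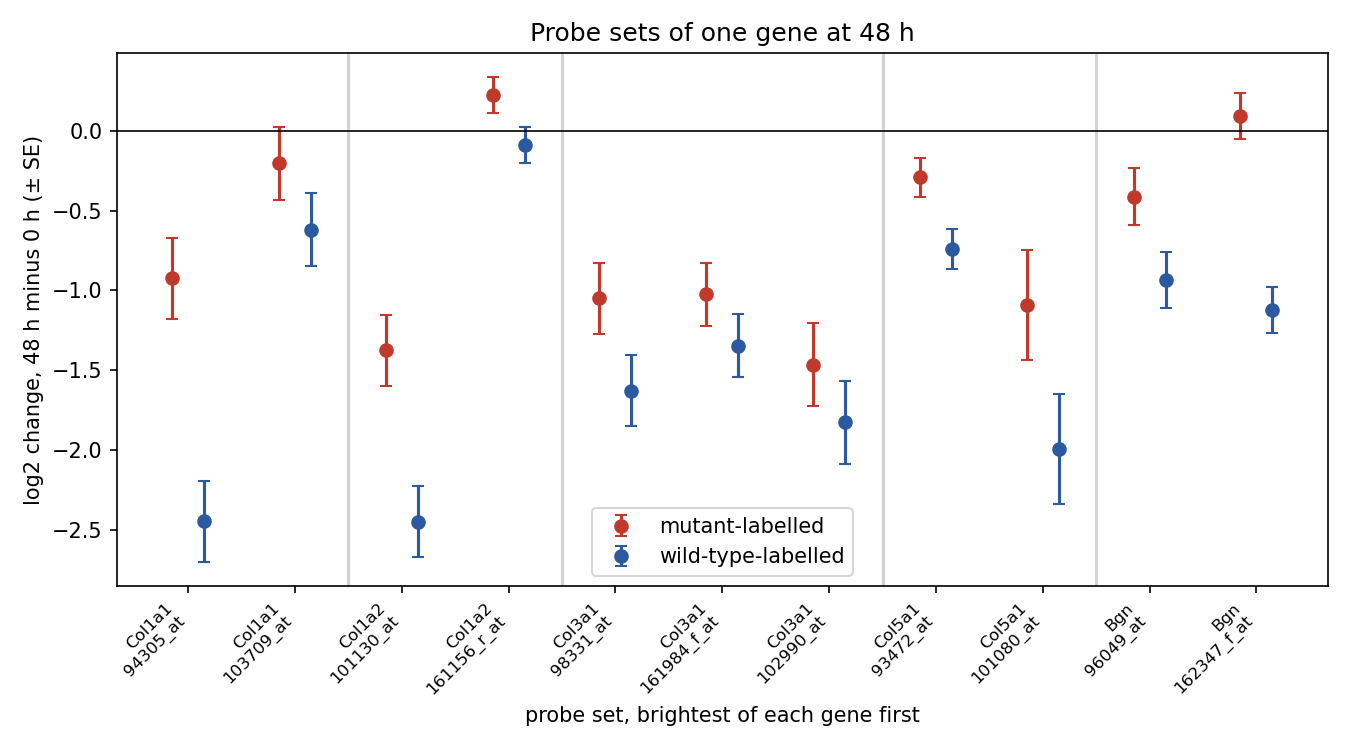
Log2 change at 48 h against 0 h of every tested probe set of the genes with more than 1, mutant-labelled left and wild-type-labelled right, with the standard error as bars. The Col1a2 probe sets lie far apart, at -2.45 and -0.09 in the wild-type-labelled arrays, while the 3 of Col3a1 lie between -1.82 and -1.35 there.

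Some other matrix genes fell as well. Here and in the marker lists, a gene given for 1 genotype only was not called in the other, which does not show a difference between genotypes. For the list counts that follow, the shares of all tested probe sets called at 48 h against 0 h were 4.98% lower and 4.49% higher in the mutant-labelled and 7.08% lower and 7.88% higher in the wild-type-labelled arrays. At 48 h against 0 h, the other collagens had 2 lower and 0 higher of 15 tested in the mutant-labelled (median -0.05) and 5 lower and 0 higher in the wild-type-labelled arrays (median -0.19). Col11a2, a fibrillar chain of cartilage, fell by 1.79 ± 0.46 (adjusted p = 0.0161) in the mutant-labelled and fell by 2.61 ± 0.46 (adjusted p = 0.000399) in the wild-type-labelled arrays, and Col11a1 fell by 0.96 ± 0.26 in the mutant-labelled and fell by 0.87 ± 0.26 in the wild-type-labelled arrays. Col6a3, of the beaded filaments of type VI collagen, fell by 1.24 ± 0.26 (adjusted p = 0.00189) in the wild-type-labelled arrays. Of 3 other small leucine-rich proteoglycans tested, 1 was lower in the mutant-labelled (median -0.71) and 2 in the wild-type-labelled arrays (median -1.69). Omd, osteomodulin of mineralised tissue, fell by 0.96 ± 0.28 (adjusted p = 0.0345) in the mutant-labelled and fell by 2.02 ± 0.28 (adjusted p = 3.18e-05) in the wild-type-labelled arrays. Ogn, osteoglycin, fell by 1.69 ± 0.32 (adjusted p = 0.00092) in the wild-type-labelled arrays.

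Genes that process collagen were mixed, with 3 lower and 0 higher of 12 tested in the mutant-labelled (median -0.20) and 3 lower and 1 higher in the wild-type-labelled arrays (median -0.36). Serpinh1, the collagen chaperone of the endoplasmic reticulum, fell by 1.19 ± 0.25 (adjusted p = 0.00392) in the mutant-labelled and fell by 1.20 ± 0.25 (adjusted p = 0.00189) in the wild-type-labelled arrays. Lox, which crosslinks collagen, rose by 0.94 ± 0.21 (adjusted p = 0.00305) in the wild-type-labelled arrays. Ctsk, also of this list, was lower in the mutant-labelled arrays, at -0.78 ± 0.22 (adjusted p = 0.0295). Of 18 fibril-associated, elastic fibre and matricellular genes, 4 were lower and 0 higher in the mutant-labelled arrays, and 5 lower and 1 higher in the wild-type-labelled arrays. Tgfbi, a TGF-beta-induced matrix protein, was the higher one, at 1.75 ± 0.21 (adjusted p = 3.82e-06). Ccn1, a matricellular protein, fell by 1.22 ± 0.36 in the mutant-labelled and fell by 1.26 ± 0.36 in the wild-type-labelled arrays, and Thbs2, thrombospondin of the matrix, fell by 1.22 ± 0.26 in the wild-type-labelled arrays. None of 3 collagen receptor genes or 9 TGF-beta signalling genes tested was called in limma in either genotype at 48 h against 0 h. An unadjusted p under 0.05 was reached by 0 receptor and 2 signalling genes in the mutant-labelled and by 1 and 3 in the wild-type-labelled arrays.

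Fibroblast markers gave few calls, and those of bone and cartilage that were called were lower. Of 8 fibroblast markers tested, 0 were called in limma in the mutant-labelled arrays, with 1 at an unadjusted p under 0.05, and in the wild-type-labelled arrays Fap was lower (-0.65 ± 0.15) and S100a4 higher (0.86 ± 0.20). Their summed signal was 12736 to 15293 at 48 h against 12618 to 14340 at 0 h in the mutant-labelled arrays, and 11844 to 15581 at 48 h against 11151 to 12139 at 0 h in wild-type-labelled arrays. Of 4 osteoblast markers, 2 were lower in each genotype, among them Dmp1, a bone matrix protein, at -1.64 ± 0.48 (adjusted p = 0.0303) in the mutant-labelled and -2.09 ± 0.48 (adjusted p = 0.00382) in the wild-type-labelled arrays. The other one called was Ibsp, bone sialoprotein, at -1.31 ± 0.36 in the mutant-labelled arrays, and Alpl, a phosphatase of mineralising cells, at -0.70 ± 0.21 in the wild-type-labelled arrays. Their summed signal was 4214 to 4931 at 48 h against 8367 to 10380 at 0 h in the mutant-labelled arrays, and 4307 to 11191 at 48 h against 7890 to 11278 at 0 h in wild-type-labelled arrays. Of 4 cartilage markers, 1 was lower in the mutant-labelled and 2 in the wild-type-labelled arrays, with Col11a2 counted here too, and the medians were -0.50 in the mutant-labelled and -1.16 in the wild-type-labelled arrays. Col9a1, the other one called in the wild-type-labelled arrays, was at -0.68 ± 0.21 (adjusted p = 0.0304). The summed cartilage signal was 2297 to 3549 at 48 h against 3842 to 4145 at 0 h in the mutant-labelled arrays, and 1728 to 3312 at 48 h against 3456 to 5284 at 0 h in wild-type-labelled arrays, so neither genotype's arrays overlapped. The part of these marker lists in the members' fall was not tested. No marker of these lists had a signal of 0 on any array, but Matn3 and Hapln1 of cartilage were under the floor on all 30.

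Vascular and mural markers had 1 of 7 called higher in each genotype, Rgs5 of pericytes, at 0.64 ± 0.17 in the mutant-labelled and 1.02 ± 0.17 in the wild-type-labelled arrays. Its other probe set was not called but had the same direction, at 0.65 ± 0.50 and 0.69 ± 0.50 in that order of genotypes. The markers' summed signal was 23358 to 36950 at 48 h against 21446 to 25100 at 0 h in the mutant-labelled arrays, where 48 h replicate 2, the array highest in most members, was also the highest. In the wild-type-labelled arrays it was 17161 to 24801 at 48 h against 17351 to 19315 at 0 h. Of 4 markers of olfactory neurons and supporting cells, Adcy3, the cyclase of odour transduction, fell in both genotypes, by 0.80 ± 0.16 in the mutant-labelled and fell by 1.06 ± 0.16 in the wild-type-labelled arrays. Cnga2, a channel subunit of odour transduction, was at -0.49 ± 0.16 (adjusted p = 0.0503, not called) in the mutant-labelled arrays, where its other probe set was called at -0.55 ± 0.17 (adjusted p = 0.043), and fell by 0.81 ± 0.16 (adjusted p = 0.000965) in the wild-type-labelled arrays. Omp was not called in either genotype, at -0.60 ± 0.86 and -0.78 ± 0.86 in mutant-labelled and wild-type-labelled arrays. Its signal was lower without overlap, at 19230 to 26773 at 48 h against 32772 to 36516 at 0 h in the mutant-labelled arrays. The wild-type-labelled arrays gave 16300 to 17923 at 48 h against 27106 to 31605 at 0 h. The standard error pools the spread within all groups, including the mutant-labelled 2 h arrays at 128.5, 16964 and 3389.5. The missing call therefore does not show that Omp stayed level. Cbr2, a marker of supporting cells, rose by 0.80 ± 0.16 (adjusted p = 0.00225) in the mutant-labelled arrays, and its change was 0.28 ± 0.16 (adjusted p = 0.248) in the wild-type-labelled arrays. The summed signal of these 4 was 27371 to 37628 at 48 h against 47084 to 52748 at 0 h in the mutant-labelled arrays. In wild-type-labelled arrays it was 24877 to 30105 at 48 h against 44675 to 52975 at 0 h, with no overlap in either. Cbr2, with means of 626 and 538 at 48 h in mutant-labelled and wild-type-labelled arrays, is a small part of it, so the sum follows the neuron markers. The part of this sum in the members' fall was not tested.

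Across the 9 groups other than the mutant-labelled 2 h one, the members' standardised mean profile was most like that of Serpinf1, Car3, Col11a2, Npnt and Ptgis among the 5396 genes compared, with Pearson correlations of 0.97, 0.96, 0.96, 0.95 and 0.95. Among the members themselves the correlation was 0.99 for Col1a2, 0.98 for Sparc and 0.97 for Lum, and lowest for Col5a1 at 0.50 and Dcn at 0.32, although the members are part of that mean. These are correlations across groups that share arrays and scaling, given as a description.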

How the data were processed

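Affymetrix MG-U74Av2 arrays were used. The deposited values are linear signal intensities, 1 per probe set and array, made by the authors with MAS5 per the submitters' processing notes, in a version that the sources used here do not give. The 2% trimmed mean of every array lay between 1500.7 and 1500.9, so all had been scaled alike. Precision is limited by how many arrays each group has. Here signals under 113.7, the pooled 25th percentile, were set to that floor before log2. Of 12488 probe sets, 66 were controls, and 6968 with at least 3 arrays above the pooled median of 572 were tested. The probe annotation gave 1 gene to 10833 probe sets, several to 396 and none to 1193, and 10817 of the 10833 matched GRCm38.p6 by gene identifier. The 10 group means were estimated with limma 3.58.1 (R 4.3.3), using two-sided moderated tests and Benjamini-Hochberg adjustment at 0.05. The steps were tested on simulated arrays. Figures used matplotlib 3.10.9.

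Alternatives were log2(signal + 16) without a floor, no filter, a replicate block, quantile normalization, a variance trend with robust moderation, only the groups compared, no mutant-labelled 2 h arrays, and each array left out. All members are named, and from each related list up to 3 genes with the largest called change at 48 h in either genotype, beside the 5 genes most like the members and Msr1. The members and lists were chosen with earlier results of these data known.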

Additional observations from a re-analysis of the deposited data

Results flagged for a closer look

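The change since 0 h differed between genotypes for 5 member probe sets, by a test of the difference itself. At 48 h the difference, mutant-labelled over wild-type-labelled, was 1.52 for Col1a1 94305_at, 1.88 for Fmod 99152_at and 1.21 for Bgn 162347_f_at. Col1a1 94305_at no longer passed under 4 of 19 alternatives and Fmod under 10 of 19, while Bgn 162347_f_at passed under all 19. At 2 h the difference was 0.54 for Col1a2 161156_r_at and 0.77 for Col5a1 93472_at. Col1a2 161156_r_at lost its call under 7 of 18 alternatives (adjusted p up to 0.0948), and Col5a1 93472_at under 0 of 18. Both 2 h values use the mutant-labelled arrays that stood apart in the Gapdh control, and its part in them was not tested.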

How the results depend on the processing

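With only the groups compared in the fit, the member counts were 0 higher at 2 h and 0 lower at 48 h against 16 h in the mutant-labelled arrays and 5 lower at 48 h against 16 h in wild-type-labelled arrays. Between genotypes they were then 3 higher at 0 h, 0 higher at 2 h and 4 higher at 48 h, and the genotype difference in change was called for 1 at 2 h and 1 at 48 h. With no filter the mutant-labelled 48 h against 16 h count was 1 and the 0 h genotype count lower was 2, and with quantile normalization the 0 h counts were 2 lower and 0 higher. Without the 3 mutant-labelled 2 h arrays the 0 h count higher was 2. The disagreement of Col3a1 102990_at was 0.26 on log2(signal + 16), and 0.20 to 0.37 with 1 array left out. With 1 array left out, the counts lower were 7 to 9 at 48 h in the mutant-labelled arrays and 13 at 48 h in wild-type-labelled arrays, 0 to 2 at 16 h in the mutant-labelled and 1 to 3 in the wild-type-labelled arrays, and 0 to 2 at 8 h in wild-type-labelled arrays. The count higher at 2 h in the mutant-labelled arrays was 1 to 2. At 48 h against 16 h they were 0 to 3 and 6 to 10 in the mutant-labelled and wild-type-labelled arrays. Between genotypes they were 2 to 3 lower at 0 h, and 0 to 1 lower and 7 to 9 higher at 48 h, and for the difference in change 1 to 3 at 2 h and 1 to 4 at 48 h. Values of single probe sets lost their call in 38 of 2080 cases under other settings and 93 of 2208 with 1 array left out, gained one in 9 and 10, and reversed in 0. These cases take in every tested member probe set in every comparison. Most had no call to lose, so the losses are a larger share of the calls than of the cases. The cause of these shifts was not tested, although leaving out arrays or groups leaves fewer samples. Same-numbered arrays were not found to deviate together by the rule used, since 0 of 15 comparisons had every correlation over 0.1 (range -0.31 to 0.35). The bound of 0.1 was a choice and missing it cannot exclude pairing, so whether the numbers pair the samples is unknown. A fit with the replicate block moved no member count by over 1.5 times, and cost the calls of Bgn 162347_f_at at 0 h between genotypes (adjusted p = 0.057) and Col3a1 98331_at at 16 h in the mutant-labelled arrays (adjusted p = 0.0605). Quantile normalization moved the median of all tested probe sets by at most 0.042. Signals near the floor limit Fmod and Col5a1 101080_at at 48 h.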
